A study of Mus musculus with 12 samples.

Results

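The genes described here are 10 cyclins, kinases and regulators of the meiotic divisions in male germ cells, out of 20345 genes in the deposited table. They were taken from the table by Ensembl ID: Ccna1 (ENSMUSG00000027793), Ccnb1 (ENSMUSG00000041431), Ccnb2 (ENSMUSG00000032218), Cdk1 (ENSMUSG00000019942), Plk1 (ENSMUSG00000030867), Aurka (ENSMUSG00000027496), Aurkc (ENSMUSG00000070837), Cdc25c (ENSMUSG00000044201), Nek2 (ENSMUSG00000026622) and Cdc20 (ENSMUSG00000006398). The rule uses no measured value, though it was set with earlier results of these data known. All 10 rows were found, and all 10 had at least 1 RPKM in at least 2 columns, the filter used for comparisons with other genes (12246 genes pass it).

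Sequencing covered RNA recovered with MIWI by immunoprecipitation (IP) and total RNA taken before it (input), from mouse cells labelled as late spermatocytes; all libraries were made without ribosomal RNA. MIWI is the PIWI-clade Argonaute protein that carries pachytene piRNAs. The genotypes were Miwi +/-, which keeps an intact copy of the gene; Miwi ADH/-, in which the remaining copy carries the ADH mutation, known from earlier work to hit the catalytic site; and Miwi -/-, which has no intact copy and whose IP serves as the control for unspecific recovery. All 3 genotypes carry at least one null allele, and there is no wild-type group. Strain and age of the animals were not given in the sources used here. Per the labels RNA came from testes or from sorted cells, and which samples came from which is not stated.

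The labels list 12 samples, 2 in each of 6 groups, and the table holds 1 column per group in RPKM, a read number scaled by gene length and by the size of the library. There is thus no spread between samples, no p-value is given, and every difference compares single columns. The 95% intervals below are exact intervals of read numbers, which were recovered from the steps of the RPKM values, and they cover counting error only. Listed genes held 1725558 reads in the Miwi +/- IP, 3706479 in the Miwi ADH/- IP, 761525 in the Miwi -/- IP, and 2627634 to 3918947 in the inputs. The 10 genes together had 501 reads in the Miwi -/- IP, against 1991 in the Miwi +/- IP, 4792 in the Miwi ADH/- IP and 3282 to 5242 among the inputs. The targeted gene, markers of spermatocytes and of other testis cells, and further genes of M phase entry and exit could not be looked up, because no table used here pairs the Ensembl IDs with symbols. The genotype labels and the labelled cell type were therefore not checked, and lower expression cannot be told apart from a smaller share of cells that express a gene.

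Entry into the meiotic divisions is driven by cyclin-dependent kinase 1, bound to a B-type cyclin. CDC25 phosphatases activate that complex, Polo-like and Aurora kinases act with it on centrosomes, spindle and kinetochores, and CDC20 turns on the anaphase-promoting complex, which destroys cyclin B and lets chromosomes separate. In the testis the cycle has its own members: cyclin A1 is needed for spermatocytes to enter the first division, and Aurora C is found mainly in germ cells. Spermatocytes make many of these mRNAs in the course of meiotic prophase, before the divisions take place.

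The proximal promoters of the B-type cyclins and of their kinase are shown because these genes supply the subunits of one complex and are compared with each other below. Each line gives the 250 bases before the RefSeq start, 5′ to 3′ on the gene's strand, in build GRCm38.p6. Capitals mark CCAAT, the box bound by the factor NF-Y, and TTTGAA, a form of the cell cycle homology region, each on either strand; no matches overlap.
Ccnb1, chr13:100786487-100786736, minus strand: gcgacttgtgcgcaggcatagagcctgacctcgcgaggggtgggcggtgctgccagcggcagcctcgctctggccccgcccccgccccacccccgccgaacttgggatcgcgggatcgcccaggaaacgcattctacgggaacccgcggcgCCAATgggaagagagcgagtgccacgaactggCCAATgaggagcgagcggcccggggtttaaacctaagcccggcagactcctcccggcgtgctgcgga
Ccnb2, chr9:70421555-70421804, minus strand: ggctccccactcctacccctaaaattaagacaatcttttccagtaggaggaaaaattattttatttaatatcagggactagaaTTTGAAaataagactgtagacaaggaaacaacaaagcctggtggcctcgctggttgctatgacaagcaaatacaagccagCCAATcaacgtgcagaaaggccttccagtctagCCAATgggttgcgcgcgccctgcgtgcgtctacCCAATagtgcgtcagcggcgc
Cdk1, chr10:69352913-69353162, minus strand: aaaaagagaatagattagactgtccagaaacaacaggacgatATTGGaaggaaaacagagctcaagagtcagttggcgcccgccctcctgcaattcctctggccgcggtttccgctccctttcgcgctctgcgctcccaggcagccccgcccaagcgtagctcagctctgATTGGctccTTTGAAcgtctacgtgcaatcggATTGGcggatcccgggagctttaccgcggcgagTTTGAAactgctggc

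Ccnb1 held 2 CCAAT matches in this window, and Ccnb2 and Cdk1 held 3 each. TTTGAA was found once in Ccnb2 and at 2 places in Cdk1, and in Ccnb1 these letters were not in the window. The promoters of a single chromosome were left out before matching, also from the background. Among the rest 9 of the 10 genes were matched. Cdc25c was not, though all 10 genes had an entry among the RefSeq genes. Whether its window was lost by leaving out that chromosome was not checked. CCAAT was in 8 of these 9 windows (all but Aurkc), against 34.5% of 27025 promoter windows of the same length. TTTGAA was in 3 of 9 (the third is Cdc20), against 16.3%, and the related TTCGAA in 0 of 9, against 1.34%. For Ccna1, Aurka and Nek2 the listed start lies inside the span of the gene. A match describes letters and was not tested for binding.

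Levels in the input RNA came first. In the Miwi +/- input the order from the top was Nek2 (131.8 RPKM), Aurka (94.7), Ccnb2 (71.1), Cdc20 (62.9), Ccna1 (31.5), Cdk1 (18.9), Ccnb1 (9.67), Plk1 (7.33), Aurkc (5.35) and Cdc25c (3.99). RPKM is divided by gene length, so these levels can be compared between genes. Each of the first 7 neighbours in this order was above the next by more than the 95% counting interval of their ratio. Plk1 over Aurkc (1.37-fold, 0.945 to 2.03) and Aurkc over Cdc25c (1.34-fold, 0.867 to 2.05) were not. Nek2, Aurka and Ccnb2 kept the first 3 places in the inputs of all 3 genotypes, and Cdc25c the last.

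**Figure D1:**
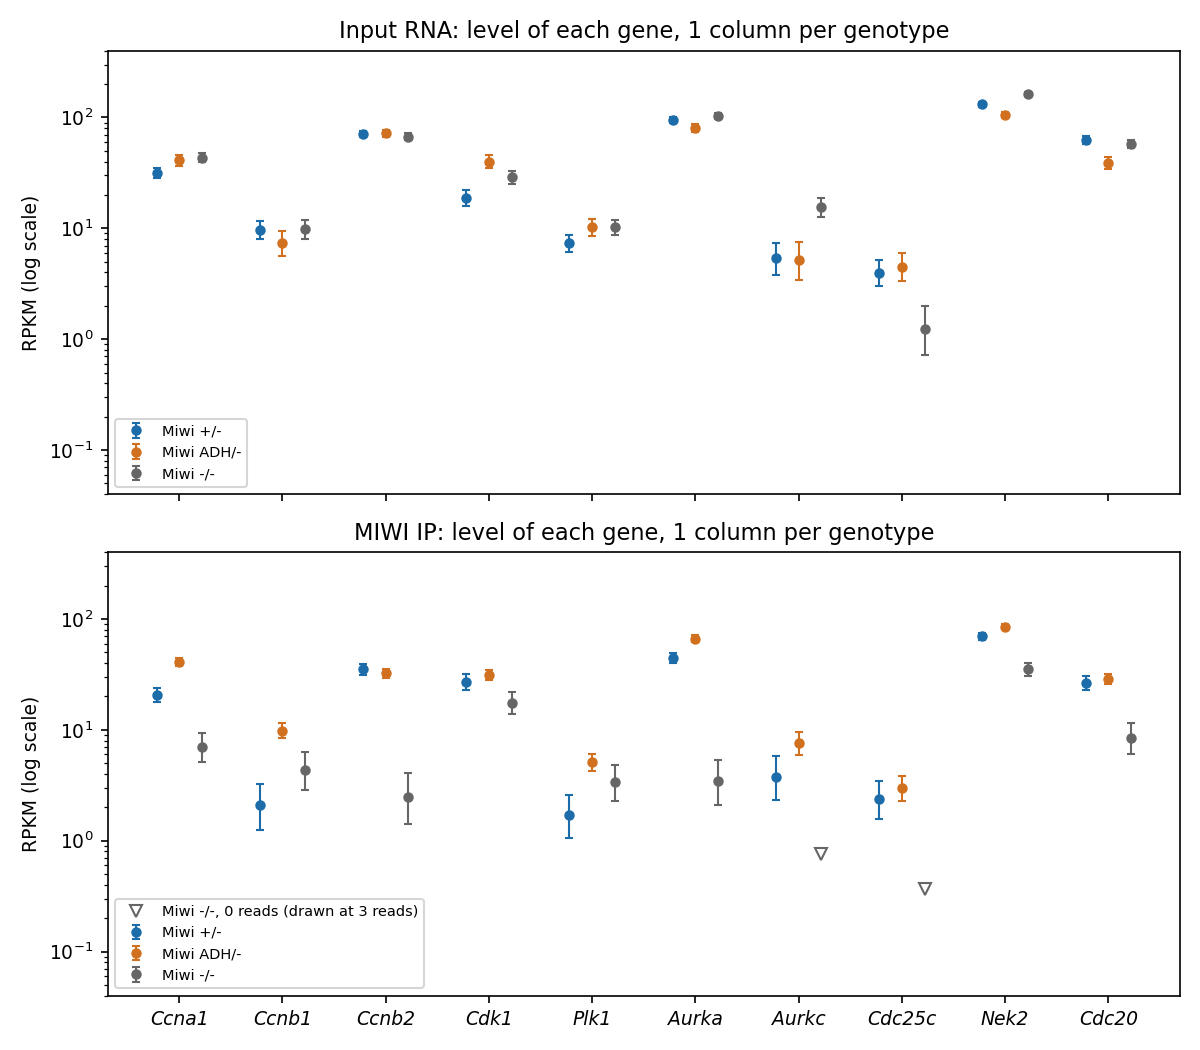
Level of each of the 10 genes in RPKM (log scale), with the inputs in the upper panel and the IPs in the lower, 1 column per genotype; bars are exact 95% counting intervals and open triangles are 0 reads drawn at the value of 3 reads. Input levels of a gene lie close together except for Cdk1, Aurkc and Cdc25c, and the Miwi -/- IP is far below the others for Ccnb2 (2.49 RPKM), Aurka (3.45 RPKM) and Aurkc (0 reads).

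Several genes overlap or resemble others, and how the authors assigned shared reads was not given in the sources used here. In RefSeq, the transcribed pseudogene Ccnb1-ps and the pseudogene Ccnb2-ps are named as copies of these cyclin genes. The spans of 5 of the 10 genes overlap another gene: Aurka overlaps Cstf1, Cdc20 overlaps Elovl1, Ccna1 a long non-coding RNA, and Cdc25c and Nek2 a pseudogene each. Values of these 7 genes are uncertain to the extent that reads were shared.

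Between the inputs of Miwi ADH/- and Miwi +/-, the 10 genes had much the same level as a group, with Cdk1 the exception. On the log2(RPKM + 1) scale their median difference was -0.01, against -0.16 for all kept genes. Counting differences of at least 2-fold on that scale, 1 gene was higher and 0 were lower in Miwi ADH/-, against 7.80% and 7.42% of all kept genes; 1 of 10 is near that background. Cdk1, the catalytic subunit that pairs with B-type cyclins, was the gene past 2-fold, with 18.9 RPKM in Miwi +/- and 39.8 in Miwi ADH/-. Its ratio was 2.11 (1.70 to 2.62, from 221 and 143 reads), its log2 difference of 1.04 lay just past the threshold, and it stood at the 92.6th percentile of all kept genes.

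The cyclins differed little between these inputs. Ccnb2 stood at 71.8 RPKM in Miwi ADH/- against 71.1 in Miwi +/-, a ratio of 1.01 (0.907 to 1.12). Ccnb1 had 7.31 and 9.67 RPKM (0.756, 0.545 to 1.04), and Ccna1 had 41.0 and 31.5 RPKM (1.30, 1.12 to 1.51). Ccna1 was thus higher than counting error allows, and for either B-type cyclin the interval holds 1.

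Cdc20, the activator of the anaphase-promoting complex, was the lowest of the 10 in this comparison. It reached 39.2 RPKM in Miwi ADH/- against 62.9 in Miwi +/-, 1.61-fold lower (1.38 to 1.87). Nek2, a centrosomal kinase, was 1.24-fold lower (1.15 to 1.34) and Aurka, the spindle pole Aurora kinase, 1.18-fold lower (1.06 to 1.30). Plk1, the mitotic Polo-like kinase, was 1.40-fold higher (1.08 to 1.81). For Aurkc (0.970, 0.569 to 1.63) and Cdc25c (1.13, 0.754 to 1.68) no difference was detectable at this depth. Aurka takes the opposite sign on another scale: its log2 difference of -0.23 became 0.02 with median-of-ratios scaling. Nek2 kept its sign there, but its log2 difference of -0.31 became -0.06.

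Between the inputs of Miwi -/- and Miwi +/-, 2 genes were past 2-fold, in opposite directions. The counts were 1 higher and 1 lower, against 4.47% and 10.6% of all kept genes. A count of 1 in 10 genes is near that background. The median difference was 0.21, against -0.02 for all kept genes. Aurkc, the Aurora kinase of germ cells, had an input level of 5.35 RPKM in Miwi +/-, 5.19 RPKM in Miwi ADH/- and 15.6 RPKM in Miwi -/-. The Miwi +/- and ADH/- inputs were level and the Miwi -/- input was 2.91-fold above Miwi +/- (1.99 to 4.34, from 105 and 38 reads), the 98.0th percentile of all kept genes.

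Cdc25c, the phosphatase that activates cyclin-dependent kinase 1, went the other way. It had 3.99 RPKM in Miwi +/-, 4.51 RPKM in Miwi ADH/- and 1.23 RPKM in Miwi -/-, where it rests on 17 reads. The Miwi -/- input was 3.23-fold below Miwi +/- (1.86 to 5.93) and lay at the 8.81th percentile. With median-of-ratios scaling its log2 difference of -1.16 became -0.95 and no longer reached 2-fold.

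Cdk1 lay between the other genotypes in Miwi -/-, at 28.8 RPKM, 1.53-fold above Miwi +/- (1.23 to 1.90). Ccna1 at 43.3 RPKM (1.37-fold, 1.20 to 1.58) and Plk1 at 10.3 RPKM (1.40-fold, 1.10 to 1.79) were close to their Miwi ADH/- levels of 41.0 and 10.3 RPKM. Both mutant inputs are compared with the same Miwi +/- column. Ccnb1 (1.02, 0.774 to 1.34), Ccnb2 (0.940, 0.850 to 1.04) and Cdc20 (0.916, 0.809 to 1.04) had ratios whose intervals hold 1, and Nek2 (1.23, 1.15 to 1.32) and Aurka (1.10, 1.00 to 1.20) were slightly higher.

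**Figure D2:**
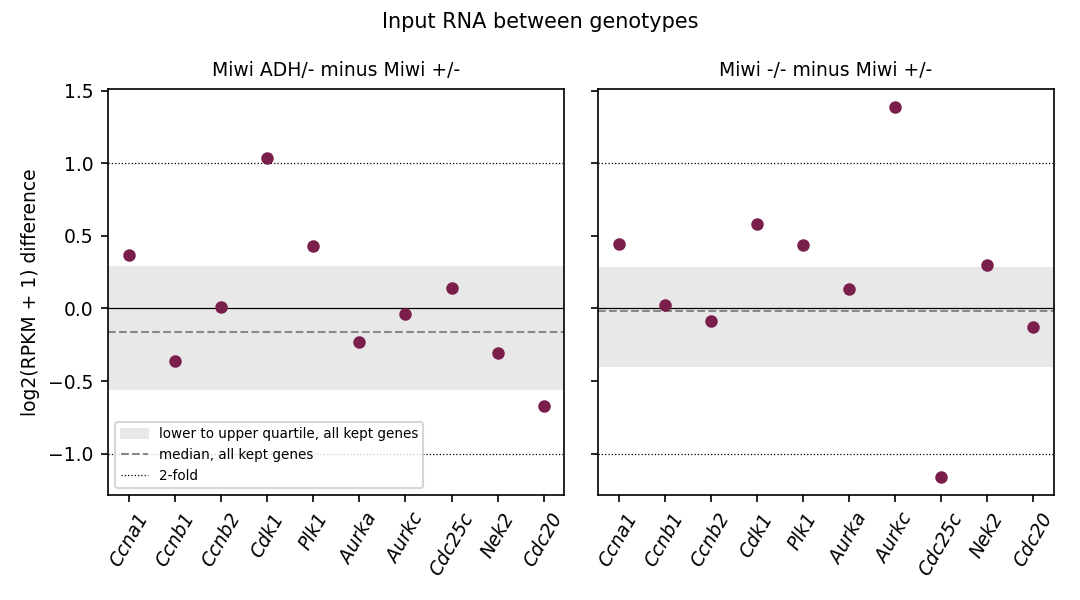
Difference of input level on the log2(RPKM + 1) scale for the 10 genes, Miwi ADH/- minus Miwi +/- on the left and Miwi -/- minus Miwi +/- on the right; the grey band spans the lower to the upper quartile of the 12246 kept genes, the dashed line is their median and dotted lines mark 2-fold. Cdk1 is past 2-fold on the left (1.04), and Aurkc (1.39) and Cdc25c (-1.16) are past it on the right.

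Recovery with MIWI was read as IP minus input in each genotype. In Miwi +/- the 10 genes were mostly less abundant in the IP than in the input, as most genes were. On the log2(RPKM + 1) scale 0 were at least 2-fold higher and 5 at least 2-fold lower, against 4.24% and 40.6% of all kept genes. The median was -0.95 for the 10 genes and -0.77 for all kept genes. Measured from that median, 1 gene was at least 2-fold higher and 1 lower, so the balance depends on the scale.

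On the deposited scale, Cdk1 alone among the 10 genes had a higher level in the Miwi +/- IP (27.1 RPKM) than in the matching input (18.9). The ratio was 1.43 (1.14 to 1.81), at the 89.8th percentile of all kept genes for the log2 difference. At the low end stood Ccnb1 and Plk1. Ccnb1, a B-type cyclin, had 2.09 RPKM in the IP against 9.67 in the input, 4.63-fold lower (2.83 to 7.98, from 19 IP reads). Plk1 had 1.70 RPKM against 7.33, 4.32-fold lower (2.73 to 7.15, from 22 IP reads).

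The other cyclins and kinases lay between these. Cdc20 was 2.36-fold lower in the IP (1.99 to 2.80), Aurka 2.14-fold lower (1.90 to 2.43) and Ccnb2 2.03-fold lower (1.78 to 2.32), the last just past the threshold on the log2(RPKM + 1) scale. Nek2 was 1.89-fold lower (1.72 to 2.07) and lies just outside it. Ccna1 (1.53-fold, 1.28 to 1.83) and Cdc25c (1.69-fold, 1.05 to 2.77) were lower by less, and the interval of the Aurkc ratio (0.703, 0.392 to 1.23) holds 1. For Ccna1, Cdc25c and Aurkc the log2 difference turns positive when the median of all kept genes is subtracted.

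In Miwi ADH/- the IP lay nearer to its input. Here 0 of the 10 genes were at least 2-fold higher and 1 was lower, against 4.83% and 25.0% of all kept genes, and the medians were -0.33 and -0.41. Ccnb2 was the gene past 2-fold, with 32.3 RPKM in the IP against 71.8 in the input, 2.22-fold lower (1.97 to 2.50). Plk1 had 5.11 RPKM against 10.3, 2.01-fold lower in RPKM (1.55 to 2.61), and a log2(RPKM + 1) difference of -0.88. Measured from the median of all kept genes, 0 of the 10 were 2-fold lower.

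Ccnb1 and Aurkc were the genes with the highest IP-to-input ratios in Miwi ADH/-. Ccnb1 had 9.84 RPKM in the IP against 7.31 in the input, a ratio of 1.35 whose interval (0.999 to 1.84) just holds 1. Aurkc had 7.58 RPKM against 5.19, a ratio of 1.46 (0.930 to 2.36). Ccna1 was level at 40.9 and 41.0 RPKM (0.998, 0.876 to 1.14). Cdk1 (0.784, 0.659 to 0.933), Aurka (0.827, 0.747 to 0.916), Nek2 (0.798, 0.735 to 0.866), Cdc20 (0.740, 0.629 to 0.871) and Cdc25c (0.659, 0.444 to 0.983) were lower in the IP than counting error allows on the deposited scale. For Cdk1, Aurka, Nek2 and Cdc20, and for Ccna1, the sign turns under at least 1 of the other scales.

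In the Miwi -/- control the 10 genes spread widely. On the deposited scale 0 were at least 2-fold higher in the IP and 9 were lower, against 3.67% and 60.9% of all kept genes, and the medians were -2.32 and -1.37. Measured from the median of all kept genes 5 remained 2-fold lower. This IP is the shallowest column, and the part of depth in the shift of all genes was not tested.

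Ccnb2, Aurka and Aurkc had the lowest IP levels relative to input in this control. Ccnb2 had 2.49 RPKM in the IP, from 16 reads, and 66.9 in the input, 26.9-fold lower (16.4 to 47.3). Aurka had 3.45 RPKM, from 20 reads, and 103.9 in the input, 30.1-fold lower (19.4 to 49.5). Aurkc had 0 reads, which allows up to 0.758 RPKM (3 reads), and 15.6 RPKM in the input. Counted at 3 reads it was at least 20.6-fold lower, and the exact interval of the ratio, which also covers the input's counting error, reached up to 0.0609. These log2 differences were the 2.68th, 1.67th and 3.85th percentile of all kept genes, in that order, and stayed past 2-fold under all 5 alternative scales and filters tried.

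The remaining genes were closer to the bulk. Cdc20 was 6.81-fold lower in the control IP (4.96 to 9.57), Ccna1 6.16-fold (4.54 to 8.52) and Nek2 4.62-fold (4.04 to 5.30). Cdk1 had the highest ratio, 17.6 RPKM against 28.8 (0.609, 0.460 to 0.797). Plk1 was 3.05-fold lower (2.07 to 4.64) and Ccnb1 2.27-fold lower (1.48 to 3.57). Cdc25c had 0 reads, up to 0.370 RPKM, against an input of 1.23 RPKM. That is at least 3.33-fold lower counted at 3 reads, with an interval of the ratio up to 0.413. With Aurkc and Cdc25c at these bounds the median of the 10 genes was again -2.32. For Ccnb1, Plk1 and Cdk1 the direction depends on the scale: with the median of all kept genes subtracted, their values were 0.35, 0.0050 and 0.69. Cdc25c was at 0.21 on that scale, but with 0 IP reads its value of -1.16 is the lowest the pseudocount of 1 allows. It stayed negative under the other alternatives, at -0.84 with median-of-ratios scaling and -3.74 with a pseudocount of 0.1.

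**Figure D3:**
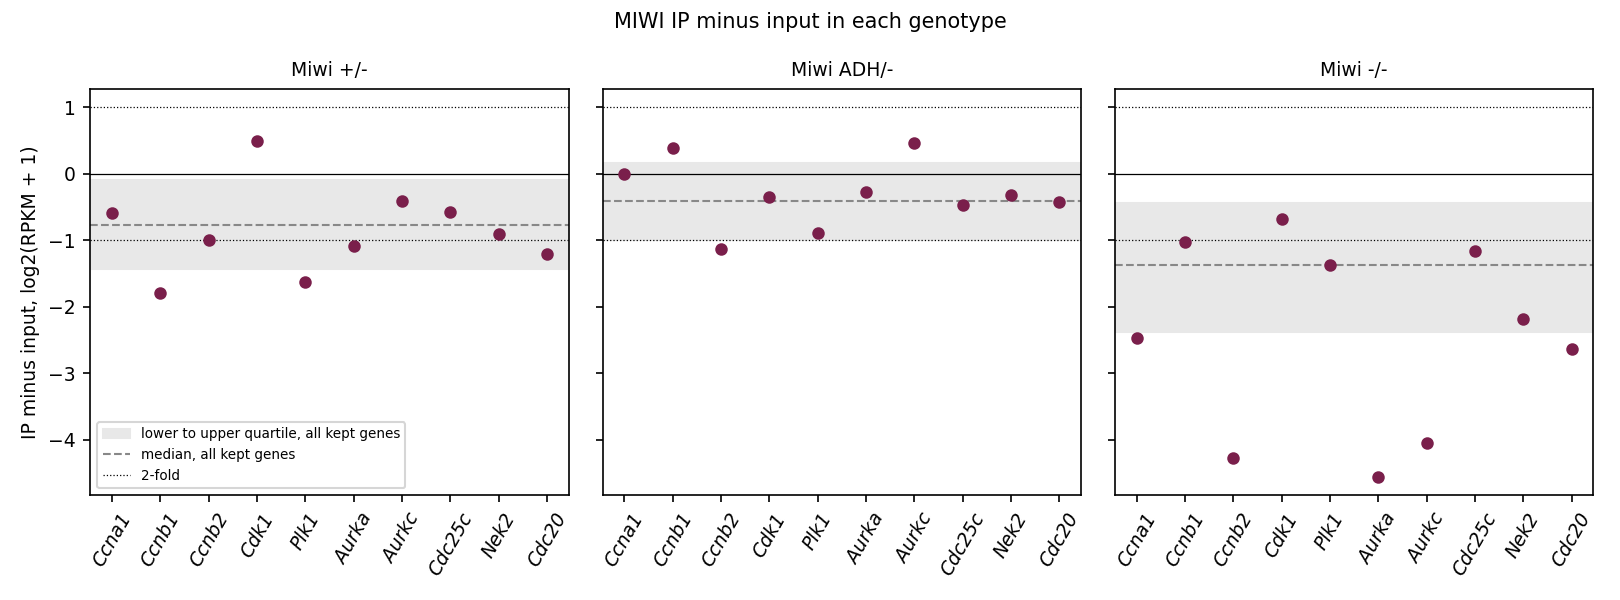
IP minus input on the log2(RPKM + 1) scale for the 10 genes in Miwi +/-, Miwi ADH/- and Miwi -/-; band, dashed line and dotted lines show the quartiles and median of the 12246 kept genes and 2-fold. On this scale Cdk1 is the only gene above 0 in Miwi +/- (0.50), Ccnb1 goes from -1.79 in Miwi +/- to 0.38 in Miwi ADH/-, and Ccnb2, Aurka and Aurkc lie below -4 in Miwi -/-, the last from 0 IP reads.

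Enrichment over the control is the difference of IP minus input between a genotype and Miwi -/-. For Miwi +/- 7 of the 10 genes were at least 2-fold higher and 0 lower, against 39.3% and 9.56% of all kept genes, with a median of 1.35 against 0.67. For Miwi ADH/- 7 were higher and 0 lower, against 51.9% and 7.30%, with a median of 2.03 against 1.06. Measured from the median of all kept genes the counts higher were 4 and 5. Both comparisons subtract the same Miwi -/- columns and are given side by side.

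Aurka, Aurkc and Ccnb2 headed both comparisons. For Aurka the log2 difference was 3.47 in Miwi +/- and 4.29 in Miwi ADH/-, with IP levels of 44.2 and 66.7 RPKM against 3.45 in the control IP. For Ccnb2 it was 3.28 and 3.16, with IP levels of 35.0 and 32.3 RPKM against 2.49. For Aurkc it was 3.64 and 4.52, with IP levels of 3.76 and 7.58 RPKM against 0 reads. With the control counted at 3 reads its IP-to-input ratio was 14.5-fold and 30.0-fold that of the control, with no allowance for counting error of the other columns. These figures include the Aurkc input, which in Miwi -/- was 2.91-fold above Miwi +/- and 3.01-fold above Miwi ADH/-. The IP columns alone were at least 4.96-fold and 9.99-fold above the control IP counted at 3 reads, with exact lower limits of 3.69 and 7.93. These 3 genes lay between the 97.1th and 98.5th percentile of all kept genes in Miwi +/- and between the 95.3th and 99.6th in Miwi ADH/-, and stayed past 2-fold in both under all 5 alternatives.

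Ccna1, Cdc20 and Nek2 were above the control in both genotypes by less. Their log2 differences were 1.87, 1.42 and 1.27 in Miwi +/- and 2.46, 2.21 and 1.85 in Miwi ADH/-. In the IP columns themselves, Nek2 had 69.9 RPKM in Miwi +/-, 84.8 RPKM in Miwi ADH/- and 35.1 RPKM in Miwi -/-. Cdc20 had 26.7, 29.0 and 8.46 RPKM, and Ccna1 20.6, 40.9 and 7.04 RPKM, in the same order. The control IP was the lowest of the 3 for each. The size depends on the scale: with median-of-ratios scaling the enrichments of Ccna1, Cdc20 and Nek2 were 0.92, 0.46 and 0.24 in Miwi +/- and 1.08, 0.81 and 0.38 in Miwi ADH/-, so that only Ccna1 in Miwi ADH/- remained past 2-fold.

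Cdk1 and Cdc25c were nearer to the control on the log2(RPKM + 1) scale. Cdk1 had a log2 difference of 1.18 in Miwi +/- and 0.34 in Miwi ADH/-, and its control IP held 17.6 RPKM against 27.1 and 31.2. With median-of-ratios scaling the Miwi +/- value was 0.16. The Miwi ADH/- value turns negative, to -0.71, relative to the median of all kept genes. With median-of-ratios scaling it was -1.09, past 2-fold below the control. Cdc25c had 0.59 and 0.69 on the log2(RPKM + 1) scale, which understates changes of low genes. Both turn negative under at least 1 other scale (lowest -0.079 and -0.37), and reach 3.01 and 3.15 with a pseudocount of 0.1. Its IP-to-input ratio in Miwi +/- (0.592, 0.361 to 0.950) and the control's (up to 0.413) have overlapping intervals. In Miwi ADH/- the ratio was 0.659 (0.444 to 0.983), and its interval lies above the control's. Against 0 reads in the control IP, the ratios of the Miwi +/- and Miwi ADH/- IP columns had exact lower limits of 4.84 and 6.33.

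Ccnb1 and Plk1 were not above the control in Miwi +/-. Ccnb1 had 2.09 RPKM in the Miwi +/- IP and 4.34 in the control IP, 2.08-fold lower (1.12 to 3.94). Plk1 had 1.70 against 3.37 RPKM, 1.99-fold lower (1.11 to 3.60). Their enrichments of -0.77 and -0.26 stand at the 12.7th and 21.9th percentile of all kept genes. In the Miwi ADH/- IP the same genes had 9.84 and 5.11 RPKM, 2.27-fold (1.51 to 3.52) and 1.51-fold (1.01 to 2.33) above the control IP, with enrichments of 1.40 and 0.49. With the median of all kept genes subtracted, the Miwi ADH/- values were 0.35 for Ccnb1, no longer past 2-fold, and -0.57 for Plk1, and the Ccnb1 value in Miwi +/- was -1.44. With median-of-ratios scaling Ccnb1 in Miwi ADH/- was 0.090.

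The Miwi ADH/- and Miwi +/- IPs, each relative to its input, differed most for Ccnb1. Of the 10 genes 1 was at least 2-fold higher in Miwi ADH/- and 0 were lower, against 20.5% and 7.56% of all kept genes, and the medians were 0.67 and 0.38. For Ccnb1 the quotient of IP and input was 1.35 (0.999 to 1.84) in Miwi ADH/- against 0.216 (0.125 to 0.353) in Miwi +/-, a log2 difference of 2.17 at the 97.4th percentile. The IP columns alone differed 4.72-fold (2.92 to 8.04, from 161 and 19 reads) and the inputs 1.32-fold the other way, within counting error. Under the 5 alternatives the value ran from 1.79 to 2.58.

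Cdk1 stood at the other end. Its ratio was 0.784 (0.659 to 0.933) in Miwi ADH/- and 1.43 (1.14 to 1.81) in Miwi +/-, a log2 difference of -0.84 at the 9.71th percentile. The IP levels of 31.2 and 27.1 RPKM differed by less than counting error (1.15, 0.954 to 1.40), and the input was the column that differed, at 39.8 against 18.9 RPKM. Plk1 (0.75), Aurka (0.81), Aurkc (0.89), Cdc20 (0.78), Ccna1 (0.59) and Nek2 (0.58) were higher in Miwi ADH/- by less than 2-fold on the log2(RPKM + 1) scale. Ccnb2 (-0.13) and Cdc25c (0.10) were nearly level, and Cdc25c turns to -0.28 relative to the median of all kept genes. With a pseudocount of 0.1, Plk1 at 1.06 and Aurkc at 1.03 also reached 2-fold, and Cdk1 stayed short of it at -0.87. Cdk1 was past 2-fold lower on other scales. It was at -1.22 relative to the median of all kept genes and at -1.25 with median-of-ratios scaling.

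**Figure D4:**
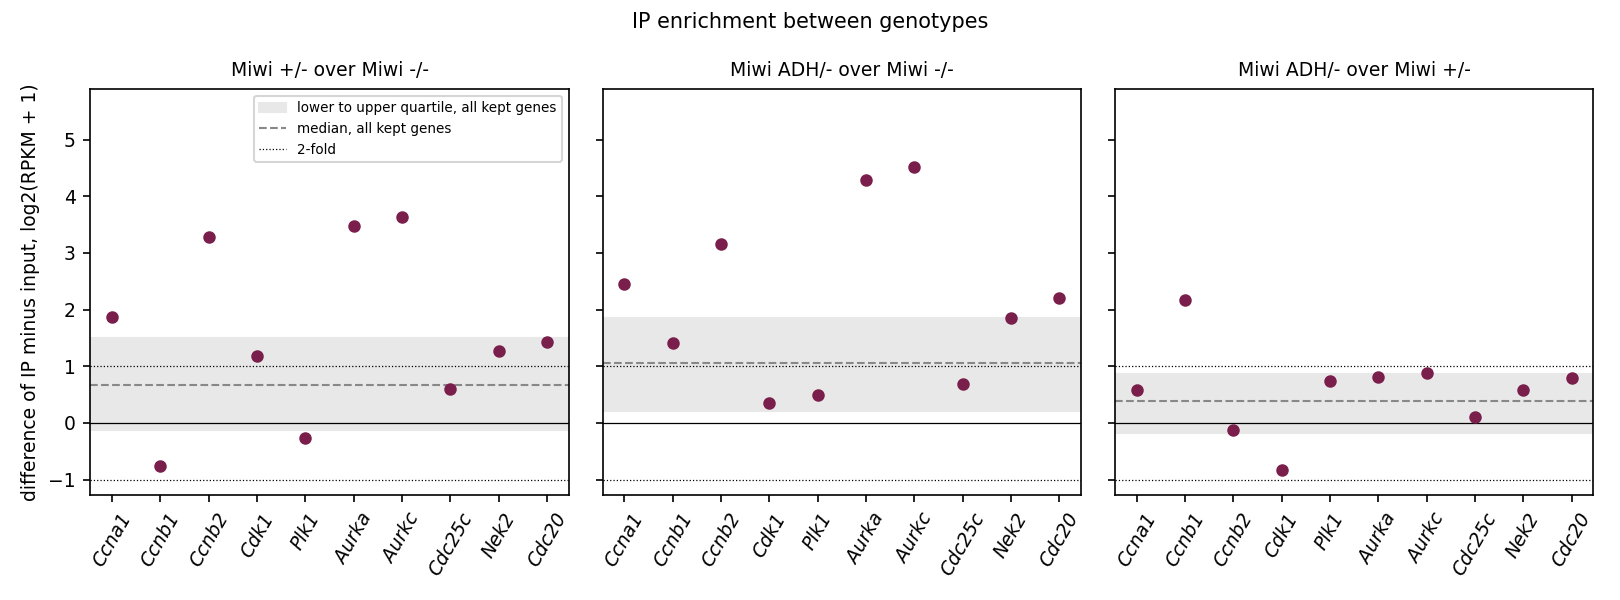
Difference of IP minus input between genotypes on the log2(RPKM + 1) scale for the 10 genes; the left and middle panels use the same Miwi -/- columns, and band and lines are as for IP minus input. Aurka, Aurkc and Ccnb2 are above 3 over the control in both genotypes, and Ccnb1 (2.17) and Cdk1 (-0.84) are the extremes of Miwi ADH/- over Miwi +/-.

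The paired genes of a family can be compared within each column, which removes any scaling between columns. The gene lengths implied by the RPKM steps of Ccnb1 and Ccnb2 were nearly equal, at a ratio of 1.00. Ccnb2 was 7.35-fold above Ccnb1 (6.03 to 9.04) in the Miwi +/- input, 9.82-fold (7.55 to 13.0) in the Miwi ADH/- input and 6.80-fold (5.55 to 8.40) in the Miwi -/- input. In the IPs the ratio was 16.8 (10.6 to 28.3) for Miwi +/-, 3.28 (2.75 to 3.94) for Miwi ADH/- and 0.573 (0.290 to 1.10) for Miwi -/-. The 3 IP intervals do not overlap, while the inputs stayed within overlapping intervals.

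For the Aurora kinases the pattern was different. Aurka was 17.7-fold above Aurkc (12.8 to 25.2) in the Miwi +/- input, 15.5-fold (10.6 to 23.8) in the Miwi ADH/- input and 6.66-fold (5.44 to 8.22) in the Miwi -/- input. In the IPs it was 11.7-fold above (7.56 to 19.2) in Miwi +/- and 8.80-fold (6.96 to 11.3) in Miwi ADH/-. In the Miwi -/- IP, with 0 Aurkc reads, the ratio had an exact lower limit of 3.37, and was 4.55 with Aurkc counted at 3 reads. The intervals of the Miwi +/- and ADH/- IPs overlap, and among the inputs the Miwi -/- column is the one that stands apart.

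**Figure D5:**
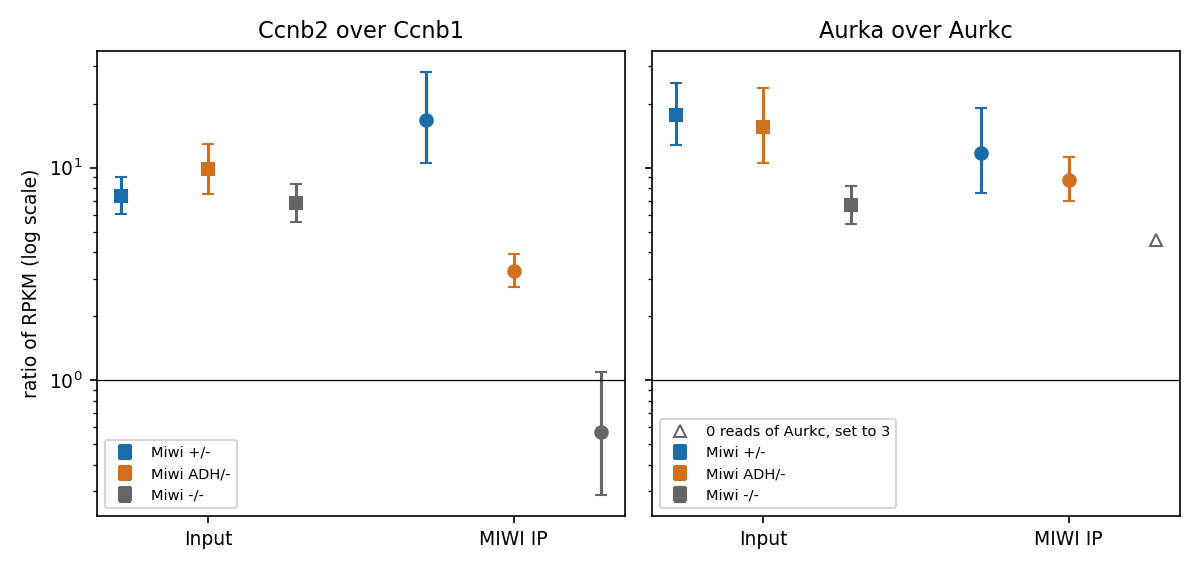
Ratio of RPKM within a column (log scale) for Ccnb2 over Ccnb1 and Aurka over Aurkc, inputs as squares and IPs as circles, coloured by genotype; bars are exact 95% counting intervals and the open triangle has 0 Aurkc reads set to 3. The cyclin B ratio spans 16.8 to 0.573 in the IPs and 6.80 to 9.82 in the inputs, while the Aurora ratio is 11.7 in the Miwi +/- IP and 8.80 in the Miwi ADH/- IP.

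The 10 genes did not share a common profile over the 6 columns. Each gene's log2(RPKM + 1) values, less its own mean, were set against the median profile of the 10. Ccna1 (root mean square distance 0.19), Nek2 (0.26) and Cdc20 (0.28) were nearest to it. The others lay at 0.51 to 0.75, where the median of 8448 other genes of at least similar level was 0.64. The other genes nearest to that profile were ENSMUSG00000074136 and ENSMUSG00000027742, at 0.08 each over 6 columns. ENSMUSG00000027742 had 71.7 RPKM in the Miwi +/- input, 37.5 in its IP and 14.1 in the control IP.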

How the data were processed

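RNA-seq of MIWI IP and input was analysed from the table of RPKM that the authors deposited, in 6 columns for 20345 Ensembl genes, 1 per group. The file headers name RPKM for the Miwi +/- columns; the same unit was assumed for the others, whose values step in the same proportions. Per the submitters' processing notes, TopHat, Bowtie and mm9 were used, without role or version. Counting tool, annotation and pooling of the 2 samples per group were not given in the sources used here.

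Relative depth of the columns came from the commonest ratio between them, and the reads of each gene from the largest step of which its values are whole multiples (tolerance 0.002 reads plus 1e-07 of the number); 100% of 17452 genes with values in more than 1 column came out whole. The procedure was tested on simulated data. Planned models across libraries could not be run on 1 column per group. Differences are of log2(RPKM + 1), among the 12246 genes that reached 1 RPKM in at least 2 columns. Ratio intervals are Clopper-Pearson, conditional on summed reads; a count of 0 was set to 3 reads for bounds. All 10 genes are named by rule, and genes of like pattern are the nearest in profile; members and lists were chosen with earlier results of these data known. Symbols of the 10 genes came with their IDs from the definition of the group. Promoters are RefSeq, GRCm38.p6, which is not the build of the reads; they were matched by symbol. The lists of M phase genes and of cell type markers gave no values. Python 3.11.15, pandas 2.3.3 and scipy 1.17.1 were used.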

Additional observations from a re-analysis of the deposited data

Results flagged for a closer look

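Cdk1 had IP-to-input ratios on opposite sides of 1 between genotypes, with counting intervals that exclude 1 in each: 1.43 (1.14 to 1.81) in Miwi +/-, 0.784 (0.659 to 0.933) in Miwi ADH/- and 0.609 (0.460 to 0.797) in Miwi -/-. Each value is from single columns, and the difference between genotypes was not tested. The direction in the mutants depends on the scale: with the median of all kept genes subtracted, the log2 values were 1.27, 0.07 and 0.69, in the same order. With median-of-ratios scaling they were 1.33, 0.08 and 1.17. The input level of Cdk1 also differed between the genotypes, at 18.9, 39.8 and 28.8 RPKM in the same order. Its IP level was 27.1, 31.2 and 17.6 RPKM. The part of input and IP in the result was not tested.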

How the results depend on the processing

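No paired analysis was possible because the table holds 1 column per group and no replicate numbers; leaving out a replicate was not run, for the same reason. Of 33 values of single genes at least 2-fold apart, 14 were so under all 5 alternative scales and filters, and 60 of all 80 values kept their sign. With a pseudocount of 0.1 enrichment counts rose to 3 genes higher for Miwi ADH/- over Miwi +/-, and from 7 to 8 over Miwi -/- for either genotype.

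Relative to the median of kept genes, IP against input gave 1 higher, 1 lower and a median of -0.18 in Miwi +/-. It gave 0 lower and 0.076 in Miwi ADH/-, and 5 lower and -0.95 in Miwi -/-. In Miwi -/- Cdk1 (0.69), Ccnb1 (0.35), Plk1 (0.0050) and Cdc25c (0.21) changed sign, the last with 0 IP reads and a value set by the pseudocount. Enrichment was 4 higher and 1 lower for Miwi +/- over Miwi -/-, had a median of 0.98 for Miwi ADH/- over Miwi -/-, and gave 1 lower and 0.29 for Miwi ADH/- over Miwi +/-.

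Median-of-ratios scaling gave 0 lower for the Miwi -/- input. IP against input was 1 higher, 1 lower and -0.084 in Miwi +/-, and 0 lower and 0.096 in Miwi ADH/-. It was 1 higher, 3 lower and -0.73 in Miwi -/-. There Cdk1 was the gene higher, at 1.17, and Ccnb1 (0.67) and Plk1 (0.28) were also above 0. Enrichment was 3 higher and 2 lower for Miwi +/- over Miwi -/-, 4 higher, 1 lower and 0.76 for Miwi ADH/- over Miwi -/-, and 1 lower and 0.25 for Miwi ADH/- over Miwi +/-.

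Equal totals of listed reads gave 1 higher, 1 lower and -0.13 for the Miwi +/- IP against input, and 0 lower and 0.11 for Miwi ADH/-. For Miwi -/- they gave 5 lower and -0.95, with Cdk1 at 0.81 and Ccnb1 at 0.33. Enrichment was 4 higher and 1 lower for Miwi +/- over Miwi -/-, 0.98 for Miwi ADH/- over Miwi -/-, and 1 lower for Miwi ADH/- over Miwi +/-.

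Without the filter, from the median of all listed genes, IP against input gave 2 lower and -0.63 in Miwi +/- and 0 lower in Miwi ADH/-, and 1 gene was lower for Miwi +/- over Miwi -/- and 1 for Miwi ADH/- over Miwi +/-. At 1.5-fold, 1 gene was lower in the Miwi ADH/- input, 2 were higher in the Miwi -/- input, 2 were lower in the Miwi ADH/- IP, 1 was lower for Miwi +/- over Miwi -/-, and 6 were higher and 1 lower for Miwi ADH/- over Miwi +/-. The cause of these shifts was not tested. In the Miwi -/- IP, Aurkc and Cdc25c had 0 reads, and Ccnb2, Aurka, Ccnb1 and Plk1 had 16, 20, 28 and 31.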
